A study of Mus musculus with 8 samples.

Results

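The genes described here encode the proteasome, its activators and the chaperones that assemble it. They were taken by name, as the rows of the deposited table whose symbol is *Psma* to *Psmg* followed by a number, which gave 47 of 18990 genes. By role these were 8 genes for the alpha rings of the core, 7 for its constitutive beta rings, 3 for the immune beta subunits, 6 for the ATPases of the base, 11 for the other base and lid subunits, 3 for chaperones of the base, 4 for activators, 1 for an inhibitor and 4 for chaperones of the core. The RNA came from primary wild-type BL6 MEFs (mouse embryonic fibroblasts) that were transduced with lentiviruses carrying rtTA and the doxycycline-inducible tet-STEMCCA cassette of Oct4, Sox2, Klf4 and c-Myc, and that were reprogrammed at passage 2. Every group received doxycycline and the same medium with LIF, ascorbic acid, chiron and a TGFb inhibitor. The groups differ only in the siRNA pool, which was *siNcor1* against the corepressor gene *Ncor1* or *siOct4* against *Oct4* (*Pou5f1*) at 40 nM, and in the day of collection, day 3 or day 6 of reprogramming. Each of the 4 groups holds 2 biological replicates. Libraries of non-targeting siRNA were not analysed here, so each comparison is between knockdowns or between days. The cells are a mixed bulk population in which the reads of the cassette and of the cells' own *Oct4*, *Sox2*, *Klf4* and *Myc* genes are not separated.

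The proteasome degrades proteins that carry ubiquitin. Its core is a barrel of alpha and beta rings, in which the subunits encoded by *Psmb6*, *Psmb7* and *Psmb5* carry the protease sites. Cells exposed to interferon, and many blood cells, replace these by the products of *Psmb9*, *Psmb10* and *Psmb8*, respectively, which gives the immunoproteasome. The base, a ring of ATPases with large scaffold subunits, unfolds the substrate, and the lid removes its ubiquitin. In place of base and lid, the core can be opened by activators, of which the products of *Psme1* and *Psme2* form an interferon-induced cap, while those of *Psme3* and *Psme4* act mainly in the nucleus. Most subunit genes are expressed in all cells, and the transcription factor NFE2L1 is known to raise them together when proteasome activity falls.

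The promoter windows of 4 genes are shown because the results below turn on them: *Psmb6* and *Psmb3*, core genes that rose between the days, *Psmb10*, the gene with the largest difference between the knockdowns at day 6, and *Psme4*, which fell between the days. Each window runs 5′ to 3′ on the strand of the gene, from 250 bases before to 50 bases after the start of the RefSeq transcript on GRCm38.p6. Capitals mark matches to any of 5 motifs searched on both strands: TGACNNNGC (the core of the antioxidant response element bound by NFE2L1 and NFE2L2), CCAAT, the E-box CACGTG, the octamer ATGCAAAT bound by OCT4, and GAAA followed after any 2 bases by GAAA (the core of the interferon response element). Matches to different motifs overlapped in 0 cases among the windows of the proteasome genes. The windows lie at chr11:70525107-70525406 (plus strand) for *Psmb6*, chr11:97703184-97703483 (plus strand) for *Psmb3*, chr8:105938343-105938642 (minus strand) for *Psmb10* and chr11:30771525-30771824 (plus strand) for *Psme4*.
Psmb6: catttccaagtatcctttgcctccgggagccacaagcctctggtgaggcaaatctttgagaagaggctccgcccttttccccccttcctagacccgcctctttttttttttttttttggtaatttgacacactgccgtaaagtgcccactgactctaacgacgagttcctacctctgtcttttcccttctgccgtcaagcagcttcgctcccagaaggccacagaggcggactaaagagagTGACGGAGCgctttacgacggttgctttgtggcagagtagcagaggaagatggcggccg
Psmb3: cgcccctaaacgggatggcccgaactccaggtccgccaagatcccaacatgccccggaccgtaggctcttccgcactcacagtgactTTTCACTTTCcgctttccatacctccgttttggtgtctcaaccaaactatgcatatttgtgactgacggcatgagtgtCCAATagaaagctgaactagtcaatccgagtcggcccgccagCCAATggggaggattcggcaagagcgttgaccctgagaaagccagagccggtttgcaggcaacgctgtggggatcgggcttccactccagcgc
Psmb10: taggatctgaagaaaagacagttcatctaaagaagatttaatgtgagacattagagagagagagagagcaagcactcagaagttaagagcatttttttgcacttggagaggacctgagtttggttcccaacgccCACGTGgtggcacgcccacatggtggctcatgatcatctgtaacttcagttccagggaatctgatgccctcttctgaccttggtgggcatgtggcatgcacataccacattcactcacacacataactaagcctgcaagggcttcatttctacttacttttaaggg
Psme4: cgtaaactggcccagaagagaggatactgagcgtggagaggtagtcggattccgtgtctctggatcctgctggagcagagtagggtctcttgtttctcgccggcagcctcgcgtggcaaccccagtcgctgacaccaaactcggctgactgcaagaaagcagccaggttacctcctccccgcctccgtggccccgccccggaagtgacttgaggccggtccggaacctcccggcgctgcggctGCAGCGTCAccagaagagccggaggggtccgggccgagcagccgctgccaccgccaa
The match in *Psmb6* is an antioxidant response core that begins 9 bases before the start, and the match in *Psme4* is the same motif on the opposite strand, 7 bases before the start. *Psmb3* holds an interferon response core and 2 CCAAT boxes, and *Psmb10* holds an E-box. RefSeq windows were matched for 39 of the 47 genes. The antioxidant response core was found in 6 of the 39 (15.4%: *Psmb5*, *Psmb6*, *Psmc6*, *Psmd9*, *Psmd12* and *Psme4*), against 13.99% of all 27025 genes with a window. For CCAAT the shares were 33.3% and 41.1%, for the E-box 10.3% and 8.09%, and for the interferon response core 12.8% (5 genes) and 3.99%. The octamer was found in 1 of the 39, *Psmd13*, against 1.97% of all genes. These letter matches are a description, and no binding was measured here.

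The deposited values are log2-cpm, and the reads behind them could be recovered as whole numbers for 100% of values. The libraries held between 7735742 and 16445192 reads on genes, so that 3 reads correspond to between 0.174 and 0.380 CPM. Replicate 2 of *siOct4* at day 3 was the shallowest library, and its values lay below those of replicate 1 in 44 of the 45 proteasome genes that were tested. Replicate 2 of *siOct4* at day 6 lay above replicate 1 in 35 of 45. On the log2 scale, the median of replicate 2 minus replicate 1 in *siOct4* at day 3 was −0.20 for these genes and −0.032 for all genes tested. At day 6 it was 0.25 and 0.072. The non-coding gene *Gm26917* took 15.5% to 16.6% of reads at day 3 and 20.3% to 29.1% at day 6, and was highest in replicate 1 of *siOct4* at day 6. Between the knockdowns, the level of the targeted gene went with the siRNA label only for *Ncor1* at day 3. At day 3, *Ncor1* was higher with the label *siOct4* by 0.74 on the log2 scale (limma, adjusted p = 0.0139), but not at day 6 (−0.042, adjusted p = 0.815). *Pou5f1* differed by −0.076 at day 3 (adjusted p = 0.941) and was higher by 1.78 at day 6 in the *siOct4*-labelled libraries (adjusted p = 1.1e-04), as were *Sox2* (1.63), *Klf4* (1.67) and *Myc* (1.59). From RT-qPCR, the paper reports that *Oct4* mRNA was silenced early and then recovered, which it ascribes to high expression from the cassette. The *siOct4* libraries are therefore named by their label. The 10 fibroblast markers were detected in every library. Their summed level was 10932 to 11270 CPM in *siNcor1* and 14170 to 16529 CPM in the *siOct4*-labelled libraries at day 3, and 7547 to 7963 CPM and 4328 to 4372 CPM at day 6. The markers of blood and macrophages summed to 11.6 to 26.4 CPM and those of the endothelium to 16.4 to 44.4 CPM, nearly all of the latter from *Tek*.

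Most proteasome genes were expressed well above the detection limit. Per kilobase of the principal transcript, a scale on which different genes can be compared, the highest mean levels over the 8 libraries were those of *Psma7* (203 CPM per kb), *Psmb3* (179), *Psmb6* (175) and *Psmd8* (146), which encode an alpha subunit, a structural beta subunit, a protease subunit and a lid subunit. Levels of the base ATPases were between 53.5 and 109 CPM per kb. The chaperones of the core were lower, from 11.1 for *Psmg3* to 30.4 CPM per kb for *Psmg1*, and those of the base were between 9.99 and 14.7. The activators lay between 23.4 and 51.6, and the inhibitor *Psmf1* at 7.69 CPM per kb. *Psmb10* reached 24.4 CPM per kb, whereas the other immune subunits *Psmb8* and *Psmb9* were at 1.48 and 0.421. *Psma8*, a testis-specific alpha subunit, had 0 to 7 reads in any library, and *Psmb9* had 1 to 11. Both were under the mean of 1 CPM required for a test, which left 45 genes. Lengths that join all exons of a gene, in place of the principal transcript, gave another order, in which *Psma7* ranked 10 and *Psmb3* ranked 11, and *Psmd2*, a scaffold subunit of the base, ranked 1.

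In *siNcor1*, 3 of the 45 genes rose and 9 fell from day 3 to day 6 (limma, adjusted p under 0.05). Over all 13866 genes tested, 13.8% were higher and 20.9% lower, which is 34.8% in all, and the median log2 fold change was 0.065 for the proteasome genes and −0.068 for all genes. The replicates of the days did not overlap in 17 genes that were higher and 16 that were lower, where 31.4% and 41.7% of all genes did not. The 3 genes that rose all encode beta subunits of the core, and 7 of the 9 that fell encode base or lid subunits. In the *siOct4*-labelled libraries, 14 rose and 9 fell, where 22.2% of all genes were higher and 30.5% lower (52.7% in all), with medians of 0.21 and −0.079. Here the days did not overlap in 19 genes that were higher and 13 that were lower, against 32.7% and 42.1% of all genes. There 9 of the 14 core genes rose and 0 fell, while 2 of the 17 base and lid genes rose and 6 fell. In bulk RNA, a change of level per cell and a change in the share of cells that express a gene cannot be told apart. The counts moved with the scaling: with library totals that leave out *Gm26917*, 7 rose and 6 fell in *siNcor1* and 22 and 5 in *siOct4*, and with quantile normalization 12 and 3, and 21 and 4. They also moved with single libraries: in *siNcor1* the genes that fell were 1 without replicate 2 of *siNcor1* at day 3 or at day 6 and 3 without replicate 1 at day 6, and 8 rose without either *siOct4*-labelled library of day 6, while in *siOct4* 8 rose without replicate 2 of day 3 and 4 fell without replicate 1 of day 3.

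The structural beta subunit gene *Psmb3*, on chromosome 11 from 97703399 to 97713500 (GRCm38, plus strand), gave the largest rise. Its log2-cpm values at day 3 were 6.21 and 6.41 in *siNcor1* and 6.57 and 6.14 in the *siOct4*-labelled libraries, and at day 6 they were 7.37 and 7.10, and 7.74 and 7.99. Every day 6 value lay above every day 3 value. The log2 fold change from day 3 to day 6 was 0.92 (SE 0.16, limma, adjusted p = 0.00146) in *siNcor1* and 1.51 (SE 0.16, adjusted p = 1.8e-05) in *siOct4*. *Psmb1*, another structural beta subunit, had 7.20 and 7.22 log2-cpm in *siNcor1* and 7.25 and 6.88 in *siOct4* at day 3, and 8.005 and 7.83, and 8.19 and 8.53 at day 6. It rose by 0.71 (SE 0.15, adjusted p = 0.00449) and 1.30 (SE 0.15, adjusted p = 3.7e-05), with no overlap between the days. The protease subunit *Psmb6*, on chromosome 11 from 70525367 to 70527858, had 6.61 and 6.56 log2-cpm in *siNcor1* and 6.78 and 6.43 in *siOct4* at day 3, and 7.38 and 7.17, and 7.76 and 7.66 at day 6. Its rises were 0.69 (SE 0.14, adjusted p = 0.00271) and 1.11 (SE 0.14, adjusted p = 4.9e-05). The other protease subunits did not move to the same degree. *Psmb7* changed by 0.54 (SE 0.20, adjusted p = 0.0557) in *siNcor1* and rose by 0.84 (SE 0.20, adjusted p = 0.0041) in *siOct4*, and *Psmb5* changed by 0.26 (SE 0.13, adjusted p = 0.159) and 0.23 (SE 0.13, adjusted p = 0.169). *Psmb2* was the core gene with negative values at both siRNAs, −0.34 and −0.27, and passed the threshold in neither. *Psmb7* shares 255 bases with *Nek6* on the opposite strand, so its counts are less certain.

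Of the 7 alpha subunit genes tested, which form the outer rings and the gate of the core, 0 passed the threshold in *siNcor1*, where 13.8% of all genes tested were higher, and 5 rose in *siOct4*, where 22.2% were. *Psma7* had 7.15 and 7.34 log2-cpm in *siNcor1* and 7.30 and 6.998 in *siOct4* at day 3, and 7.51 and 7.37, and 8.09 and 8.12 at day 6. The *siOct4*-labelled libraries at day 6 stood above the other 6. *Psma7* rose by 0.95 (SE 0.13, limma, adjusted p = 1.2e-04) in *siOct4* and changed by 0.19 (SE 0.13, adjusted p = 0.269) in *siNcor1*. *Psma1* rose by 0.95, *Psma4* by 0.66, *Psma3* by 0.64 and *Psma2* by 0.54 in *siOct4*. In these genes replicate 2 at day 6 was well above replicate 1 (7.73 against 6.96 log2-cpm for *Psma1*, and 7.75 against 7.03 for *Psma2*), and for *Psma2*, which overlaps *AW209491* (247 reads on average) on the same strand, the days overlapped. *Psma3* and *Psma4* have pseudogenes of at least 96.8% identity in the table, which held 44.1 and 26.5 reads per library on average, against 849 and 1561 for the genes.

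**Figure D1:**
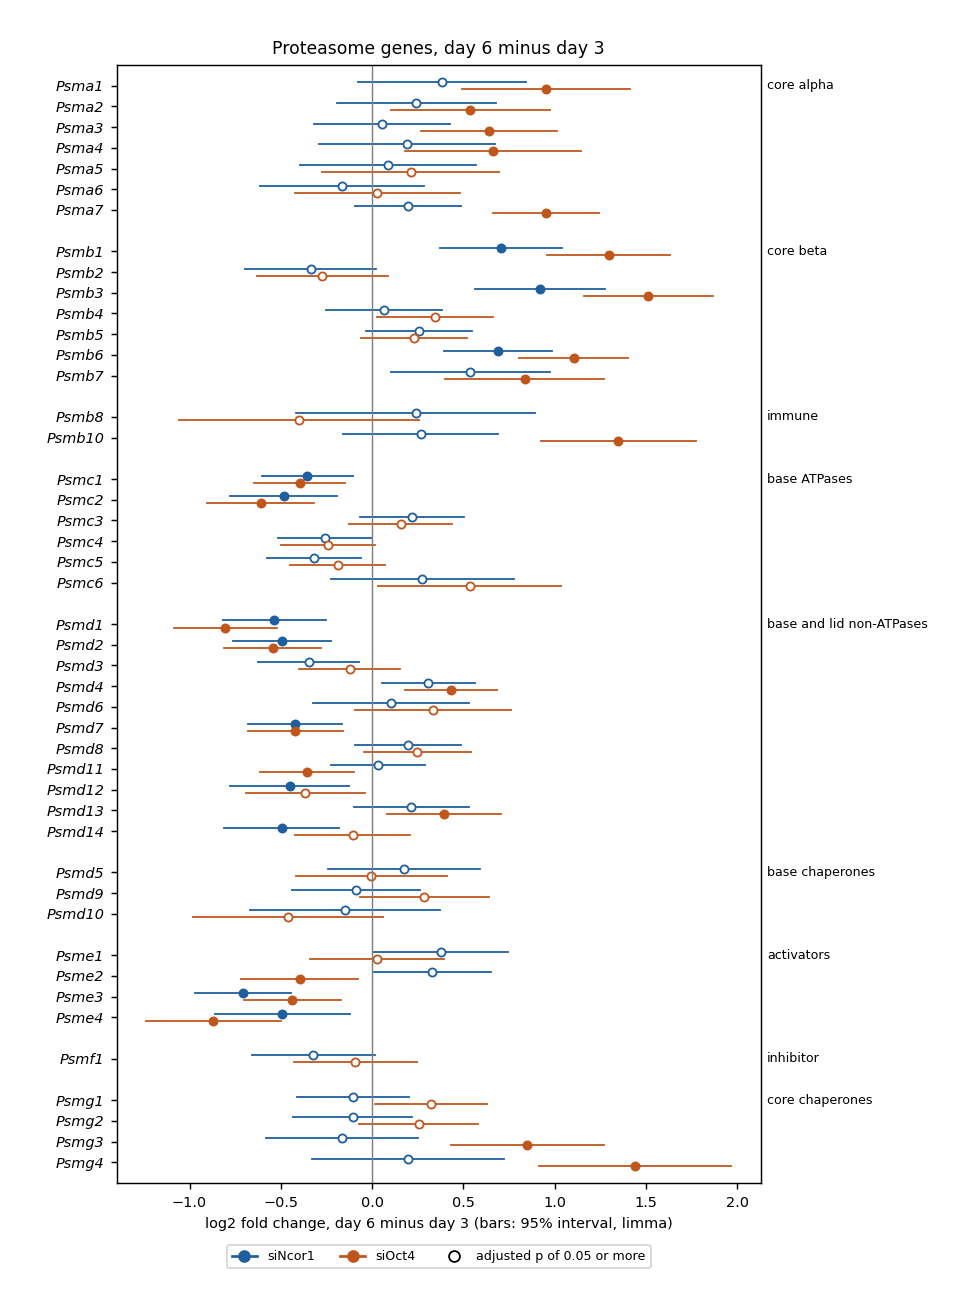
The log2 fold change from day 3 to day 6 is plotted on the horizontal axis for each of the 45 tested proteasome genes, ordered by role, with *siNcor1* in blue and the *siOct4*-labelled libraries in orange. Bars are 95% intervals from limma on 2 replicates a group, and filled points passed an adjusted p of 0.05. Core genes lie mostly to the right of 0 (9 of 14 rose in *siOct4*, where 22.2% of all genes did). Of the 17 base and lid genes, 10 in *siNcor1* and 11 in *siOct4* lie to the left. Among them 7 fell in *siNcor1* and 6 in *siOct4*, where 20.9% and 30.5% of all genes did.

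Of the 17 base and lid genes, 0 rose and 7 fell in *siNcor1*, where 20.9% of all genes were lower, and 2 rose and 6 fell in *siOct4*, where 30.5% were. Negative values were found in 10 of the 17 in *siNcor1* and in 11 in *siOct4*. *Psmd2*, a large scaffold subunit of the base, had 8.51 and 8.66 log2-cpm in *siNcor1* and 8.63 and 8.64 in *siOct4* at day 3, and 8.15 and 8.04, and 8.01 and 8.18 at day 6. All 4 libraries of day 6 lay below the 4 of day 3. It fell by 0.49 on the log2 scale (SE 0.12, limma, adjusted p = 0.00907) in *siNcor1* and by 0.55 (SE 0.12, adjusted p = 0.00281) in *siOct4*. *Psmd1*, its partner scaffold, had values of 7.27 to 7.35 log2-cpm in the 4 libraries of day 3 and of 6.75, 6.74, 6.33 and 6.68 at day 6. It fell by 0.54 (SE 0.13, adjusted p = 0.008) and by 0.80 (SE 0.13, adjusted p = 3.2e-04). The ATPase gene *Psmc2* had 6.71 to 6.89 log2-cpm at day 3 and 6.35, 6.28, 6.07 and 6.41 at day 6, and fell by 0.48 (adjusted p = 0.0154) and by 0.61 (adjusted p = 0.00245). *Psmc1*, another ATPase of the ring, and *Psmd7*, whose product pairs with the deubiquitinase of the lid, also fell in both, by 0.36 to 0.42. *Psmd14*, that deubiquitinase, fell by 0.49 (SE 0.14, adjusted p = 0.0199) in *siNcor1* and changed by −0.11 in *siOct4*, where it did not pass the threshold. The lid subunit *Psmd12* fell by 0.45 in *siNcor1*, and *Psmd11* by 0.36 in *siOct4*. The ubiquitin receptor *Psmd4* and the lid subunit *Psmd13* rose in *siOct4*, by 0.43 (SE 0.12, adjusted p = 0.00823) and 0.40 (SE 0.14, adjusted p = 0.036). *Psmd13* shares 329 bases with *Sirt3* on the opposite strand. With quantile normalization the falls of *Psmc1*, *Psmc2*, *Psmd7*, *Psmd12* and *Psmd14* in *siNcor1* and of *Psmc1*, *Psmd7* and *Psmd11* in *siOct4* lost the call and kept their sign, at −0.13 to −0.30. The chaperones of the base, *Psmd5*, *Psmd9* and *Psmd10*, passed the threshold at neither siRNA.

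Since both subcomplexes were measured in one library, their relation can be given without any scaling between libraries. The mean log2-cpm of the 14 core genes minus that of the 17 base and lid genes was −0.53 and −0.56 in *siNcor1* and −0.53 and −0.77 in *siOct4* at day 3. At day 6 it was −0.10 and −0.11 in *siNcor1*, and 0.029 and 0.20 in *siOct4*. All 4 libraries of day 6 lay above the 4 of day 3, and the 2 *siOct4*-labelled libraries above the 2 of *siNcor1* at day 6, whereas the knockdowns overlapped at day 3. In summed reads, the core genes took 1355 ± 58.2 CPM (SD, n = 2) in *siNcor1* and 1297 ± 226 CPM in *siOct4* at day 3, and 1687 ± 87.0 CPM and 2220 ± 409 CPM at day 6. The base and lid genes took 2415 ± 122 and 2512 ± 133 CPM at day 3, and 2157 ± 98.2 and 2316 ± 247 CPM at day 6. Over all 47 genes the sums were 4425 ± 189, 4423 ± 405, 4393 ± 182 and 5095 ± 716 CPM, so that the total of *siNcor1* differed between the days by less than the spread between its replicates.

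**Figure D2:**
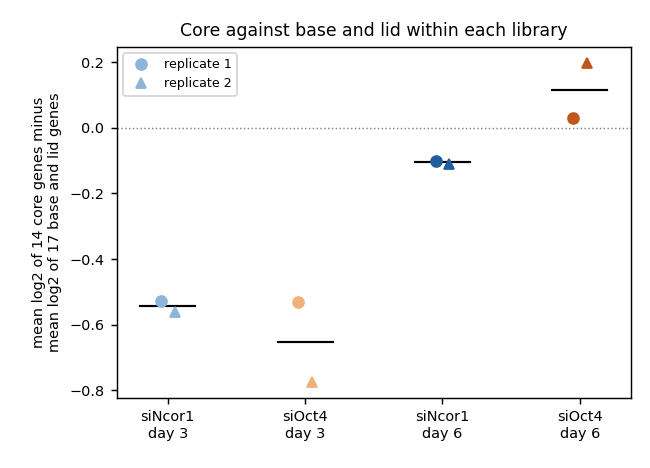
The vertical axis is the mean log2-cpm of the 14 core genes minus that of the 17 base and lid genes within one library, and each point is a library (circle, replicate 1, and triangle, replicate 2), with a line at the mean of each group of 2. Day 3 libraries lie between −0.77 and −0.53, and day 6 libraries between −0.11 and 0.20.

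Transcript length moved with these changes across the whole table. Protein-coding genes with a principal transcript of 2003 bases or fewer had a median log2 fold change from day 3 to day 6 of 0.20 in *siNcor1* and 0.37 in *siOct4*, against −0.32 and −0.51 in the longest of 4 length groups of equal size. Of the 45 proteasome genes, 33 belong to the shortest of these groups. The 14 genes that rose in *siOct4* had a median transcript length of 1183 bases and the 9 that fell one of 2664, with lengths from 962 to 6491 bases among those that fell. With the trend on length removed from all genes, an alternative chosen after the data were seen, the counts were 2 higher and 14 lower in *siNcor1* and 8 and 16 in *siOct4*. The mean log2 fold change of the core genes then was 0.044 in *siNcor1* and 0.20 in *siOct4*, where it had been 0.27 and 0.65. For the base and lid genes it was −0.22 and −0.27, where it had been −0.17 and −0.12. The mean of the core genes then lay above that of the base and lid genes, by less than before. With the trend removed, 2 of the 14 core genes rose and 1 fell in *siNcor1*, and 7 were negative. In *siOct4*, 7 core genes rose and 3 fell, and 5 were negative. Of the 17 base and lid genes, 0 rose at either siRNA, while 10 fell in *siNcor1* and 9 in *siOct4*. The part of length in the changes was not tested further. The summed level of the fibroblast markers was lower at day 6 than at day 3 with either siRNA, as given above, but the 10 markers did not move together. In *siNcor1*, 5 rose (*Dcn*, *Thy1*, *Twist2*, *Pdgfra* and *Col3a1*) and 3 fell (*Col1a1*, *Fn1* and *Col1a2*), where 13.8% and 20.9% of all genes did. Their median log2 fold change was 0.30. In *siOct4*, 1 rose (*Dcn*) and 6 fell, where 22.2% and 30.5% of all genes did, and the median of the markers was −0.81. Their part in the changes of the proteasome genes was not tested.

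**Figure D3:**
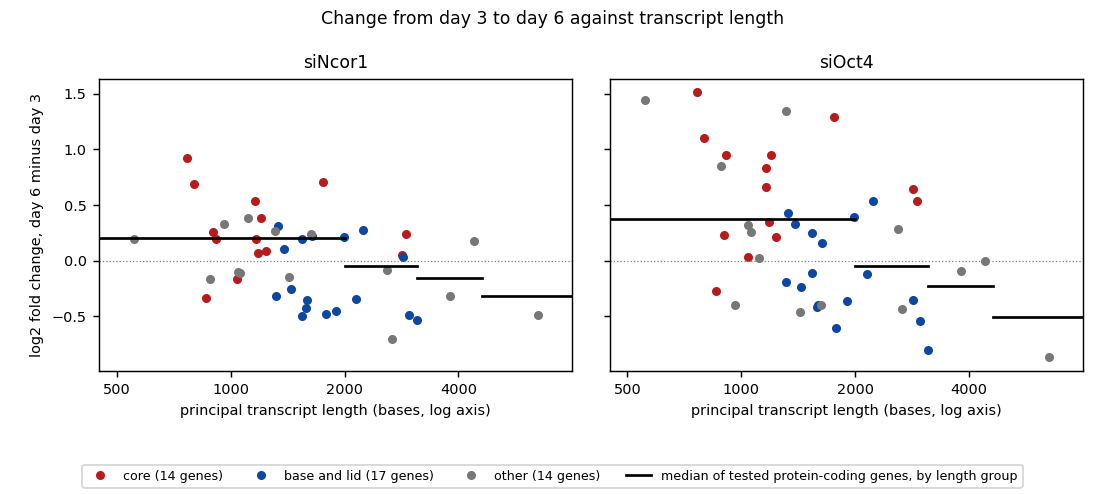
The log2 fold change from day 3 to day 6 (vertical axis) is plotted against the length of the principal transcript in bases (horizontal log axis) for the 45 tested proteasome genes, with *siNcor1* on the left and the *siOct4*-labelled libraries on the right. Black lines mark the median of the tested protein-coding genes in each of 4 length groups of equal size, which falls from 0.20 to −0.32 on the left and from 0.37 to −0.51 on the right, and core genes (red) lie mostly above base and lid genes (blue).

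Between the knockdowns at day 6, 8 of the 45 genes were higher with the label *siOct4* and 4 were lower (limma, adjusted p under 0.05), where 12.1% of all genes tested were higher and 18.6% lower (30.7% in all). Their replicates were apart in 20 genes that were higher and 6 that were lower, against 29.9% and 34.8% of all genes. The median log2 fold change was 0.19 for the proteasome genes and −0.025 for all genes. Higher were 4 core genes (*Psma7*, *Psmb1*, *Psmb3* and *Psmb6*), the immune subunit *Psmb10* and the core chaperones *Psmg1*, *Psmg3* and *Psmg4*. Lower were the immune subunit *Psmb8* and the activators *Psme1*, *Psme2* and *Psme4*. Of the 17 base and lid genes 0 passed the threshold, with 1 at an unadjusted p under 0.05 (*Psmd11*, −0.27, 95% interval −0.52 to −0.0064). The largest value among them was that of *Psmd14*, 0.28 (95% interval −0.034 to 0.60, adjusted p = 0.161), and among the chaperones of the base that of *Psmd9*, 0.31 (adjusted p = 0.164). Single libraries decided these counts: without replicate 2 of *siNcor1* at day 6 they were 2 higher and 0 lower, without replicate 1 of *siNcor1* at day 6 they were 4 and 1, without replicate 1 of *siOct4* at day 6 they were 17 and 0, without replicate 2 they were 7 and 8, and without either *siNcor1* library of day 3, which enter through the shared estimate of the spread, they were 4 and 3. *Psmb10* and *Psmg3* were called in every alternative in which they were tested. *Psmg3*, with a mean of 9.77 CPM, was not tested with the filter of 10 CPM.

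In the core, *Psma7* was higher by 0.66 (SE 0.13, limma, adjusted p = 0.00409), *Psmb3* by 0.64 (SE 0.16, adjusted p = 0.0126), *Psmb1* by 0.44 (SE 0.15, adjusted p = 0.0468) and *Psmb6* by 0.44 (SE 0.14, adjusted p = 0.0314) in the *siOct4*-labelled libraries at day 6, from the values by library given above. The replicates were apart in each of these 4 genes. All 14 core genes had positive values, from 0.0024 for *Psma5* to 0.66, also under the 4 other scalings tried, but 5 alpha genes were negative without replicate 2 of *siOct4* at day 6. The difference at day 6 also ran with transcript length over all protein-coding genes, from a median of 0.18 in the shortest of the 4 length groups to −0.24 in the longest. With the length trend removed, the mean over the core genes was 0.12 in place of 0.31, 4 of the 14 were negative and 3 were called. The immune subunits moved in opposite directions. *Psmb10*, on chromosome 8 from 105935735 to 105938444 (minus strand), had 4.20 and 4.60 log2-cpm in *siNcor1* and 4.60 and 4.44 in *siOct4* at day 3, and 4.93 and 4.40, and 6.00 and 5.74 at day 6. Both *siOct4*-labelled libraries at day 6 lay above the other 6, and the difference at day 6 was 1.21 (SE 0.20, adjusted p = 0.00138), or 2.31-fold. *Psmb8*, with 13 to 50 reads a library, had 1.56 and 1.87 log2-cpm in *siNcor1* and 0.59 and 1.00 in *siOct4* at day 6, and was lower by 0.92 on the log2 scale (SE 0.30, adjusted p = 0.0376, and 0.0535 with voom on the recovered reads). Of the blood and macrophage markers, which mark cells that carry immune subunits, *Tyrobp* had 0 reads in 3 libraries. The 8 markers in the table summed to 20.2 to 26.4 CPM in *siNcor1* and 18.3 to 23.7 CPM in *siOct4* at day 6. Of the 4 tested, 0 were called there: *Lyz2* was higher in *siOct4* (mean 2.17 against 1.32 log2-cpm), and *Laptm5*, *Cd68* and *Csf1r* were lower. Between the days in *siOct4*, 3 rose (*Lyz2*, *Cd68* and *Laptm5*) and 1 fell (*Csf1r*), where 22.2% and 30.5% of all genes did. The part of these markers in the immune subunits was not tested. *Psmb9* had 5 and 11 reads in *siNcor1* and 1 and 6 reads in *siOct4* at day 6, which is too few for a comparison, and it shares 212 bases with *Tap1* on the opposite strand, which had 288 reads on average.

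Within a library, *Psmb10* minus its constitutive counterpart *Psmb7* was −1.73 and −1.43 on the log2 scale in *siNcor1* and −1.69 and −1.28 in *siOct4* at day 3, −1.68 and −2.02 in *siNcor1* at day 6 and −0.57 and −1.37 in *siOct4* at day 6. *Psmb8* minus *Psmb5* was −3.37 and −3.87, and −4.09 and −3.99 at day 3, and −3.85 and −3.43, and −4.85 and −4.49 at day 6. At day 6 the first difference was higher, and the second lower, in both *siOct4*-labelled libraries than in both of *siNcor1*. The first difference in replicate 2 of *siOct4* at day 6 lay within the range of day 3. Per kilobase of transcript, *Psmb10* reached 44.6 CPM per kb in *siOct4* at day 6 against 19.5 in *siNcor1*, beside 100 and 78.8 for *Psmb7*, and *Psmb8* stood at 1.00 and 1.95, beside 49.1 and 45.4 for *Psmb5*.

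**Figure D4:**
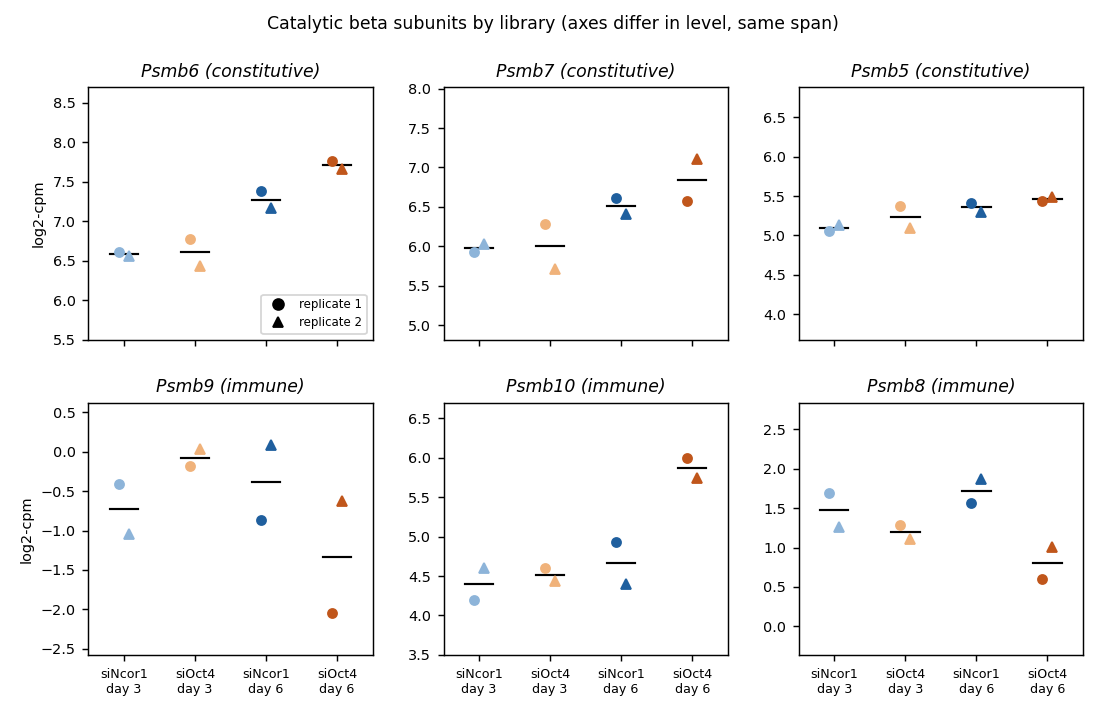
Each panel gives the log2-cpm of one protease subunit gene in the 8 libraries, with the constitutive genes above and the immune genes that replace them below, and with lines at the mean of each group of 2. *Psmb10* at day 6 was 6.00 and 5.74 in the *siOct4*-labelled libraries against 4.93 and 4.40 in *siNcor1*, *Psmb8* was 0.59 and 1.00 against 1.56 and 1.87, and *Psmb9* rests on 1 to 11 reads a library.

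Among the activators, *Psme1* and *Psme2*, whose products form one cap, were lower together at day 6. *Psme1* had 5.27 and 5.15 log2-cpm in *siNcor1* and 4.42 and 4.80 in *siOct4*, a difference of −0.60 (SE 0.17, limma, adjusted p = 0.02). *Psme2* had 4.94 and 4.82, and 4.17 and 4.49, a difference of −0.55 (SE 0.15, adjusted p = 0.0154). Between the days, *Psme1* changed by 0.38 (adjusted p = 0.101) in *siNcor1* and 0.027 (adjusted p = 0.903) in *siOct4*, and *Psme2* by 0.33 (adjusted p = 0.103) and −0.40 (SE 0.15, adjusted p = 0.0396). Reads of *Psme2* may be shared with its copy *Psme2b* (99.4% identity), which held 10.2 reads on average against 315. *Psme4*, on chromosome 11 from 30771726 to 30880361, encodes the largest activator and has the longest principal transcript of the tested proteasome genes, 6491 bases. It had 7.68 and 7.60 log2-cpm in *siNcor1* and 7.44 and 7.41 in *siOct4* at day 3, and 7.03 and 7.27, and 6.26 and 6.85 at day 6. It fell with the days by 0.49 (SE 0.17, adjusted p = 0.0405) in *siNcor1* and by 0.87 (SE 0.17, adjusted p = 0.00111) in *siOct4*, and was lower by 0.59 in *siOct4* at day 6 (SE 0.17, adjusted p = 0.0212). *Psme3* had 7.25 to 7.44 log2-cpm at day 3 and 6.70, 6.68, 6.77 and 6.99 at day 6, and fell by 0.71 (SE 0.12, adjusted p = 0.00122) and by 0.44 (SE 0.12, adjusted p = 0.0096). It did not pass the threshold between the knockdowns at day 6 (0.19, adjusted p = 0.26). Of the activators' falls between the days, only that of *Psme3* in *siNcor1* was called in every alternative processing. The lower values of *Psme1*, *Psme2* and *Psme4* in *siOct4* at day 6 also lost the call in some alternatives. The inhibitor *Psmf1* had 4.46 to 5.12 log2-cpm and passed the threshold in 0 of the 5 comparisons.

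The chaperones of the core work in pairs on the alpha ring, *Psmg1* with *Psmg2* and *Psmg3* with *Psmg4*. *Psmg3* had 2.99 and 3.25 log2-cpm in *siNcor1* and 3.204 and 2.88 in *siOct4* at day 3, and 3.01 and 2.90, and 3.97 and 3.81 at day 6, from 57 to 164 reads. *Psmg4* had 3.54 and 3.51, and 3.39 and 2.64 at day 3, and 3.77 and 3.67, and 4.70 and 4.21 at day 6, from 48 to 245 reads. In both genes the *siOct4*-labelled libraries at day 6 lay above the other 6. *Psmg3* was higher in them by 0.94 (SE 0.19, limma, adjusted p = 0.00431) and *Psmg4* by 0.73 (SE 0.24, adjusted p = 0.0389), and both rose between the days in *siOct4*, by 0.85 (SE 0.19, adjusted p = 0.00284) and 1.44 (SE 0.24, adjusted p = 4.1e-04). *Psmg1* was higher by 0.41 (SE 0.14, adjusted p = 0.0463) at day 6. *Psmg2* differed by 0.16 (SE 0.15, adjusted p = 0.457), and its knockdowns overlapped. In *siNcor1* the 4 chaperone genes changed by −0.17 to 0.20 between the days, and 0 passed the threshold.

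**Figure D5:**
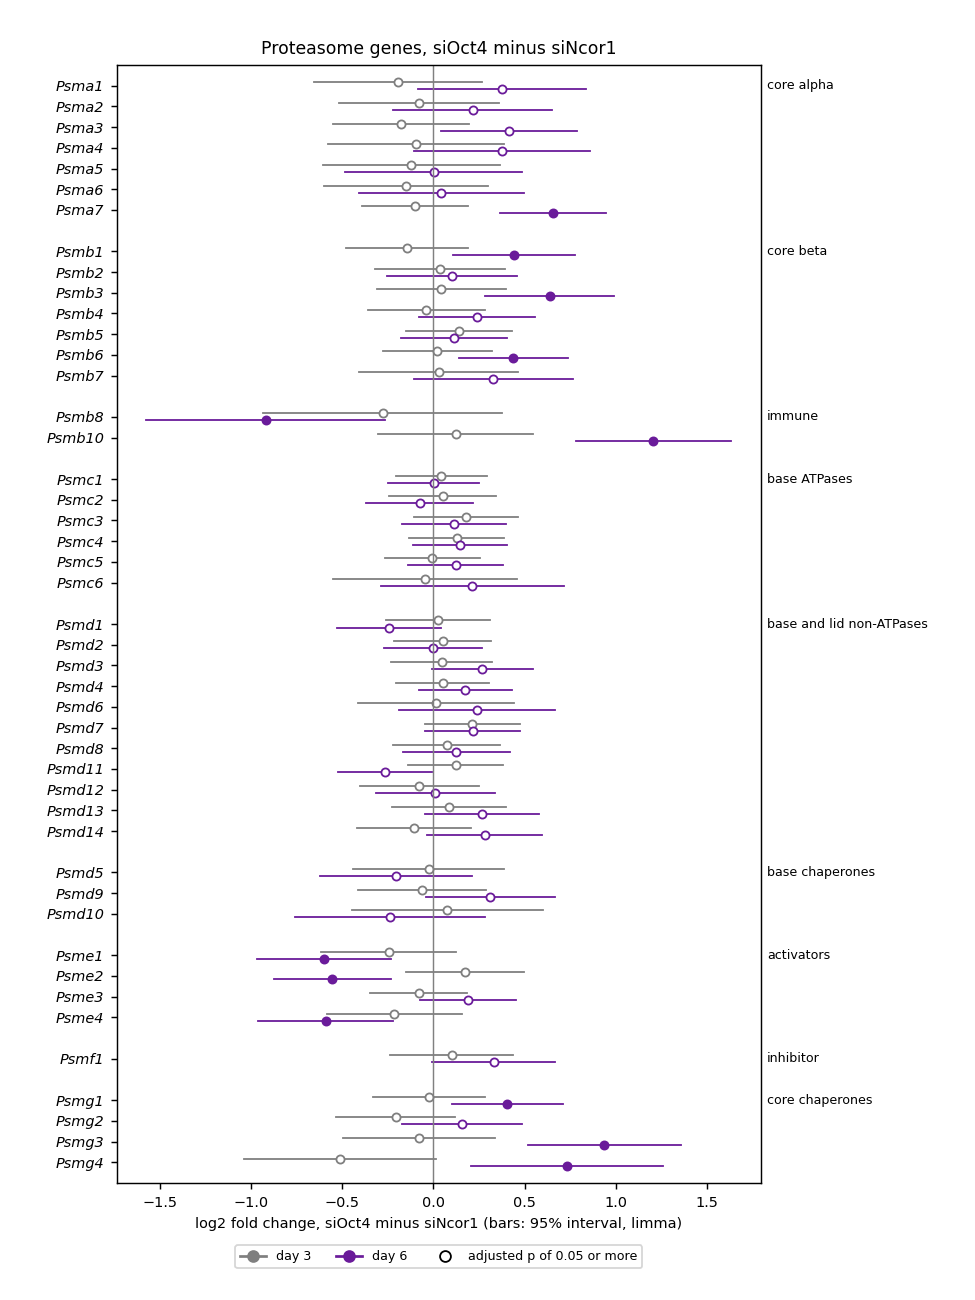
The difference between the *siOct4*-labelled libraries and *siNcor1* (log2 scale, horizontal axis) is plotted for each of the 45 tested proteasome genes at day 3 (grey) and day 6 (purple), with 95% intervals from limma on 2 replicates a group and filled points for an adjusted p under 0.05. At day 3 the values run from −0.51 to 0.21 with 0 filled points, where 1.07% of all genes passed. At day 6 they run from −0.92 (*Psmb8*) to 1.21 (*Psmb10*) with 12 filled points, where 30.7% of all genes passed.

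The knockdowns differed at day 3 in 0 of the 45 genes (limma, adjusted p under 0.05), and 0 had an unadjusted p under 0.05. The same count was 0 with voom on the recovered reads. Over all genes tested 1.07% were called, and 1460 had an unadjusted p under 0.05. The values ran from −0.51 for *Psmg4* (95% interval −1.04 to 0.015) to 0.21 for *Psmd7* (95% interval −0.046 to 0.47), and the core gene with the largest value was *Psma1* (−0.19, 95% interval −0.65 to 0.27). Replicates of the knockdowns did not overlap in 3 genes that were higher and 5 that were lower, where 20.7% and 22.7% of all genes did not. The intervals, on a spread estimated from 2 libraries a group, do not leave out differences of about these sizes.

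The difference between the knockdowns changed from day 3 to day 6 in 5 of the 45 genes (limma interaction term, adjusted p under 0.05), of which 4 moved up and 1 down, where 7.77% of all genes moved up and 12.9% down. These were *Psmg4* (1.24, SE 0.34, adjusted p = 0.0255), *Psmb10* (1.08, SE 0.28, adjusted p = 0.0187), *Psmg3* (1.02, SE 0.27, adjusted p = 0.0226) and *Psma7* (0.76, SE 0.19, adjusted p = 0.0168) upwards, and *Psme2* (−0.73, SE 0.21, adjusted p = 0.0302) downwards. Of the base and lid genes 0 were called, and the largest value was that of *Psmd11* (−0.39). The calls rest on single libraries: without replicate 2 of *siNcor1* at day 3, replicate 2 of *siOct4* at day 3 or replicate 2 of *siNcor1* at day 6 there were 0 in either direction, without replicate 1 of *siNcor1* at day 6 there were 2 up and 0 down, without replicate 1 of either siRNA at day 3 there were 3 and 6 up and 0 down, and without replicates 1 and 2 of *siOct4* at day 6 there were 15 and 1, and 4 and 4.

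Genes that work with the proteasome but are not named *Psm* were followed in lists. Their counts are to be read against the shares of all genes tested, which were 13.8% higher and 20.9% lower between the days in *siNcor1*, 22.2% and 30.5% in *siOct4*, and 12.1% and 18.6% between the knockdowns at day 6. Of 12 tested partners, 1 rose and 5 fell between the days at either siRNA, and 1 was higher at day 6 in *siOct4*. The gene that rose was *Sem1*, a small lid subunit, by 0.83 (SE 0.15, limma, adjusted p = 0.00187) in *siNcor1* and 1.29 (SE 0.15, adjusted p = 3.7e-05) in *siOct4*, and it was also the one higher at day 6 (0.46, adjusted p = 0.0409). The deubiquitinase *Usp14* fell by 0.91 and 0.85, and *AI314180*, the mouse name of the proteasome adaptor ECPAS, by 0.87 and 0.73. *Pomp*, the maturation factor of the core, changed by 0.021 and 0.05 and was not called. Of 17 genes for ubiquitin supply and delivery of substrates, 3 rose and 6 fell in *siNcor1*, and 3 rose and 7 fell in *siOct4*. Among them *Sqstm1*, a receptor for ubiquitin-carrying cargo, was lower at day 6 in *siOct4* (−0.71).

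Of 16 regulators of proteasome genes, 1 was higher and 5 were lower in *siOct4* at day 6, where 12.1% and 18.6% of all genes were, and 2 rose and 7 fell there between the days, where 22.2% and 30.5% of all genes did. *Nfe2l3*, a relative of *Nfe2l1*, was higher by 0.99 (SE 0.18, limma, adjusted p = 0.00255) and rose by 1.84 (SE 0.18, adjusted p = 9.8e-06) in *siOct4* and by 0.98 (SE 0.18, adjusted p = 0.00191) in *siNcor1*. *Nfe2l1* itself was lower by 0.41 (adjusted p = 0.0201) at day 6 and fell by 0.55 in *siOct4*, and the lower genes with the largest differences at day 6 were *Bach1* (−0.96), a repressor at antioxidant response elements, *Stat3* (−0.78) and *Nfe2l2* (−0.77). Of 10 targets of NFE2L2, 8 were lower and 0 higher at day 6 in *siOct4* (18.6% and 12.1% of all genes), led by *Slc7a11* (−0.95), *Srxn1* (−0.94) and *Hmox1* (−0.76). Between the days, 6 rose and 1 (*Me1*) fell in *siNcor1* (13.8% and 20.9% of all genes), and *Hmox1* rose by 1.90 and *Slc7a11* by 1.68. In *siOct4*, 4 rose, with *Hmox1* and *Slc7a11* among them, and 3 fell (22.2% and 30.5% of all genes). Of 14 tested genes of the interferon response and antigen presentation, 10 were lower and 0 higher at day 6 in *siOct4* (18.6% and 12.1% of all genes). The fibroblast markers moved with both lists in that comparison: 9 of the 10 were lower, with a median of −0.82, and their part was not tested. Among the interferon and antigen presentation genes the largest differences were those of *Ifit3* (−1.74), *Gbp2* (−1.20) and *Erap1* (−1.05). *Ifit3* had only 26 and 22 reads in *siNcor1* and 4 and 7 in *siOct4* at day 6. Its mean of 1.02 CPM reached the 1 CPM required for a test through the *siNcor1* libraries of day 6, so its value is uncertain. *Psmb8*, *Psme1* and *Psme2*, which are known to be induced with the interferon genes, were lower as well, and *Psmb10*, which is induced with them too, was higher. In the list, *H2-K1* (mean 5.87 log2-cpm in *siOct4* against 5.62 in *siNcor1*), *H2-D1* (6.19 in both), *B2m* (6.88 against 7.28) and *Tap2* (2.12 against 2.39) were not called at day 6. Between the days, 6 genes of the list rose, *Ifit3* among them, and 1 fell in *siNcor1* (13.8% and 20.9% of all genes). In *siOct4*, 2 rose (*H2-K1* and *H2-D1*) and 5 fell (22.2% and 30.5% of all genes). The median log2 differences at day 6 were −0.067 for the regulators, −0.66 for the targets of NFE2L2, −0.81 for the interferon and antigen presentation genes, 0.051 for the partners and 0.023 for the ubiquitin genes, against −0.025 for all genes. At day 3, 0 genes of these 5 lists passed the threshold between the knockdowns (limma, adjusted p under 0.05), and 5 of their 69 tested entries had an unadjusted p under 0.05.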

How the data were processed

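RNA-seq of total RNA depleted of ribosomal RNA was measured in 8 libraries, 2 in each of 4 groups taken from the sample labels. The authors aligned reads to mm10 (GRCm38) with STAR 2.5.2b and deposited log2-cpm values made with edgeR 3.20.9, per the labels' processing notes and the methods. The tool that counted reads is not given in the sources used here. A constant of 0.136 CPM was subtracted on the linear scale, after which 100% of values came out as whole reads (tolerance 0.1 read). Coordinates, lengths and roles of transcripts came from GENCODE M21 (GRCm38), which held all 47 genes, and promoters from RefSeq.

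Tests used the deposited log2 values and limma 3.58.1 (R 4.3.3, lmFit, and eBayes with a trend) for genes whose mean reached 1 CPM, with the 4 groups in one fit and Benjamini-Hochberg adjustment over 13866 genes at 0.05. With 2 libraries a group, p-values rest on a spread shared by all groups. The counting tests planned for counts were not used because the values are log2. Near copies were found with BLAST 2.17.0, and matplotlib 3.10.9 drew the figures.

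The genes named with values are the immune and constitutive protease subunits, activators, inhibitor and chaperones, up to 3 called genes a direction in the core and in the base and lid for each comparison (the largest value where 0 were called), and up to 3 called genes a list. Other members named were chosen after their values were seen, as were *Pomp*, *Nfe2l1* and *Sqstm1*. Some genes of the lists enter the counts and are not reported by name here. The proteasome genes and the lists were chosen with earlier results of these data known. Alternatives were the scaling, the filter, the pseudocount, the trend, the samples in the fit, voom, a replicate block, and leaving out each library.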

Additional observations from a re-analysis of the deposited data

Results flagged for a closer look

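The results here are values in which the difference between the knockdowns changed from day 3 to day 6 by a limma interaction term (adjusted p under 0.05), given on the log2 scale as the difference at day 6 minus that at day 3. Among the proteasome genes these were *Psmg4* (1.24), *Psmb10* (1.08), *Psmg3* (1.02), *Psma7* (0.76) and *Psme2* (−0.73). Among the regulators they were *Nfe2l3* (0.86), *Bach1* (−0.997), *Stat3* (−0.98), *Nfe2l2* (−0.80) and *Nfe2l1* (−0.60). *Zfand2a*, a partner of the proteasome, had −0.80, and *Sqstm1* had −0.75. The targets of NFE2L2 were *Srxn1* (−1.06), *Hmox1* (−0.91), *Gclc* (−0.77), *Txnrd1* (−0.73) and *Me1* (−0.60). Genes of the interferon response and antigen presentation were *Gbp2* (−1.92), *Ifit3* (−1.91), *Nlrc5* (−1.46), *Tapbp* (−1.01) and *B2m* (−0.68). The value of *Ifit3* rests on 4 to 26 reads a library. Its mean of 1.02 CPM reached the 1 CPM required for a test through the *siNcor1* libraries of day 6, so its value is uncertain. Over all genes tested, 20.7% passed this test.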

How the results depend on the processing

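Counts are given as genes higher and lower out of the 45 tested. At day 6 between the knockdowns (8 and 4) they were 3 and 2 without the trend of the variance, 5 higher with no filter on low values, and 5 and 1 with only the groups compared in the fit. Between the days in *siNcor1* (3 and 9) there were 3 lower without the trend, 7 higher with only the groups compared, 5 higher with libraries centred on their medians, 12 and 3 with quantile normalization, 7 higher without *Gm26917* in the totals, and 14 lower with the length trend removed. In *siOct4* (14 and 9) there were 4 lower with quantile normalization, 22 and 5 without *Gm26917*, and 8 and 16 with the length trend removed. For the change of the difference (4 and 1) there were 1 and 0 without the trend and 2 lower with the length trend removed. Leaving out 1 library at a time gave 2 to 17 higher and 0 to 8 lower at day 6, 2 to 8 and 1 to 11 in *siNcor1*, 8 to 20 and 4 to 11 in *siOct4*, 0 to 15 and 0 to 4 for the change of the difference, and 0 and 0 at day 3. In *siNcor1*, 8 were higher without either library labelled *siOct4* at day 6, and 1 lower without replicate 2 of *siNcor1* at day 3 or at day 6 and 3 without replicate 1 at day 6. In *siOct4*, 8 were higher without replicate 2 at day 3 and 4 lower without replicate 1 at day 3. A lone library left in a group is assumed to vary like the others. Where the cause of a change is not the smaller number of libraries or groups, it was not tested. The values that turned sign and were called were *Psma5* at day 6 without replicate 2 of *siOct4* (−0.44, and 0.44 without replicate 1), and, with the length trend removed in *siOct4*, *Psma6* (−0.51), *Psmb5* (−0.43) and *Psme1* (−0.46).

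Calls made in every alternative that tested the gene were 2 of 12 at day 6 (*Psmb10*, *Psmg3*), 2 of 12 in *siNcor1* (*Psmb3*, *Psme3*), 9 of 23 in *siOct4* (*Psma1*, *Psma7*, *Psmb1*, *Psmb3*, *Psmb6*, *Psmb10*, *Psmc2*, *Psmd1*, *Psmd2*) and 0 of 5 for the change of the difference. *Psmg3*, with a mean of 9.77 CPM, was not tested with the filter of 10 CPM. Voom used the effective library sizes of the deposited values in place of TMM, and the totals without *Gm26917* carried no normalization factors. Over all genes called, the share that was higher moved by over 10 points from 35.1% to 55.1% at day 3 with voom and from 42.1% to 52.6% between the days in *siOct4* without *Gm26917*, which also moved the median of all genes there from −0.079 to 0.054. Replicate numbers come from the labels, and the deviations of same-numbered libraries correlated by −0.040 to 0.28, not over 0.1 in every pair. The libraries were therefore treated as unpaired, but such correlations cannot decide whether same-numbered libraries shared a batch. With a replicate block in the fit the counts were 8 and 4 at day 6, 3 and 11 in *siNcor1*, 15 and 10 in *siOct4*, 4 and 1 for the change of the difference and 0 and 0 at day 3. Low counts, as for *Psma8* (0 to 7 reads a library) and *Psmb9* (1 to 11), limit what these depths can show.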
